A study of Mus musculus with 6 samples.

Results

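The naive pluripotency transcription factors are a set of DNA-binding or chromatin-directed regulators that mark embryonic stem cells resembling the pre-implantation epiblast. The set comprised 8 genes chosen by name, Esrrb, Nanog, Tfcp2l1, Nr5a2, Nr0b1, Tbx3, Prdm14 and Zfp42, out of 19937 genes measured. Each of the 8 was represented by 1 probe set, and that probe set named no other gene. The choice used no measured value, although earlier results of these arrays were known when it was made.

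Expression was measured on 3 arrays labelled as CHIR99021 and 3 labelled as XAV939, all from cells treated for 24 h. CHIR99021 inhibits the kinase GSK3, which otherwise marks β-catenin for destruction, and was given at 3 µM. XAV939 inhibits tankyrases, which stabilises Axin and lowers β-catenin. Its dose is 3 µM in the sample labels and 1 µM in the treatment protocol. All arrays came from one mouse embryonic stem cell line, a V6.5 derivative with a biotin and 3xFLAG tag knocked into Ctnnb1, the β-catenin gene, and with the biotin ligase BirA. The cells were grown with serum, the cytokine LIF and feeder cells from DR4 mice. No untreated array was analysed here, so a difference is one between 2 opposite drug treatments and was assigned to neither. Whether replicates came from separate cultures is not stated, so the p-values measure only the spread between these arrays, which may be technical.

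In mouse embryonic stem cells the naive factors form a densely cross-regulated network that also includes OCT4 and SOX2. LIF feeds into it through STAT3, and β-catenin feeds into it largely by relieving repression by TCF7L1, a DNA-binding partner that holds Esrrb, Nanog and other naive genes down. Within the network ESRRB, NR5A2 and NR0B1 are nuclear receptors, NANOG is a homeodomain protein, TFCP2L1 belongs to the CP2/grainyhead family, TBX3 to the T-box family, PRDM14 to the PRDM family, and ZFP42, also known as REX1, is a zinc finger protein related to YY1.

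Arrays of one treatment correlated at 0.997 to 0.999 across genes and arrays of different treatments at 0.994 to 0.995, with array medians between 5.67 and 5.71 on the log2 scale. Values are log2 expression made by the authors with RMA, and a difference is the CHIR99021 mean less the XAV939 mean. Its standard error (SE) and 95% interval come from a limma fit over all genes, and p-values were adjusted by the Benjamini-Hochberg method. The label of the cells was matched by high signals of the pluripotency genes Pou5f1, with mean log2 levels of 11.33 with CHIR99021 and 11.51 with XAV939, and Sox2, at 10.98 with either drug. In RNA from whole cultures, a change in the fraction of cells of one kind and a change in RNA per cell cannot be told apart.

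All 8 naive factors had higher values on every CHIR99021 array than on any XAV939 array, a separation in that direction seen for 14.1% of all genes (25.1% in either direction). The difference passed an adjusted p of 0.05 for 7 of them, where 5.31% of all genes were called higher, and 0 were lower, where 4.34% of all genes were called lower (9.65% were called in either direction). At an unadjusted p under 0.05, limma had 8 of the 8 higher and 0 lower, where 2225 of the 19937 genes were higher and 1875 lower. Ordinary least squares called 5 of the 8 higher and 0 lower after adjustment, where it called 350 of all genes higher and 289 lower. The median difference of the set was 0.55, against 0.0066 over all genes. Of the 8, 4 were called at 1.5-fold or more, as 1.1% of all genes were upward. Sizes were graded: Tfcp2l1, Tbx3, Nr5a2, Esrrb and Nanog differed between 2.61-fold and 1.41-fold, while Nr0b1, Zfp42 and Prdm14 differed by 1.20-fold, 1.19-fold and 1.18-fold.

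Promoters of the set are described first. The 3 printed were picked for holding, before the start site, a stretch of letters matching a factor that acts in the network. Their matches therefore follow from the choice. Promoter windows, running from 250 bases before to 50 after the start site, were found in the RefSeq table (build GRCm38.p6) for 6 of the 8 genes, in 9 windows. The sequences are given 5′ to 3′ on the strand of the gene, and capitals mark the matches.
Nanog (chr6:122707315-122707614, plus strand): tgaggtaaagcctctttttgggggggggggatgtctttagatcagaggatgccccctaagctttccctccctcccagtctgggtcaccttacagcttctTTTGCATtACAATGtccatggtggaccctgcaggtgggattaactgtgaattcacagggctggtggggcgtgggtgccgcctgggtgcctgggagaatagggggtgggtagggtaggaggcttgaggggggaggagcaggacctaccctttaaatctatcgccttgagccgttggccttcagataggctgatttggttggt
Zfp42 (chr8:43306960-43307259, minus strand): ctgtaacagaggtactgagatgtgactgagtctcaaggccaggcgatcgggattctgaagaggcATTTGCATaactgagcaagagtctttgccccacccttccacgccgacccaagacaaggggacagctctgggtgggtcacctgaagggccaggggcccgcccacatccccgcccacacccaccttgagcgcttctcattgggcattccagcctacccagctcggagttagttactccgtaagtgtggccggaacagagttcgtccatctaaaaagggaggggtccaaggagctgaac
Nr0b1 (chrX:86191525-86191824, plus strand): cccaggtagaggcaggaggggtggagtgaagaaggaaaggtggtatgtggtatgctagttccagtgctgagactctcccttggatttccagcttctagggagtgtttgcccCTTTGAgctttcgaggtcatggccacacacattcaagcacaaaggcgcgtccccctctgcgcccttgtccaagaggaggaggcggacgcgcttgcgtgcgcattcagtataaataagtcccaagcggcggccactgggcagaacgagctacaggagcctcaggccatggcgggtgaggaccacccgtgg

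In the Nanog window the capitals are TTTGCAT, 151 bases before this start site, followed after 1 base by ACAATG, the reverse complement of CATTGT. This is the composite element bound by OCT4 and SOX2. Both strands were searched, and these short forms were picked after the promoters had been read. TTTGCAT occurs in 4.63% of the 32851 promoter windows in the table and CATTGT in 12.6%. The Zfp42 capitals are the full octamer ATTTGCAT, which contains TTTGCAT, 186 bases before the start; it occurs in 1.74% of windows. The Nr0b1 capitals are CTTTGA, a core of the TCF/LEF recognition sequence, 139 bases before the start. That core is in 16% of all windows and in 1 of the 6 genes with a window, and its longer form CTTTGAT, which contains it, is in 3.73% of windows and in 0 of the 6. The ESRRB and NR5A2 sequence TCAAGGTCA (0.423% of windows), the shorter AAGGTCA within it (4.72%), the STAT3 sequence TTCCNGGAA (1.15%) and the SOX sequence CATTGTT (3.78%, which contains CATTGT) matched 0 of the 6. CATTGT also occurs in Esrrb, 32 bases after one of its start sites. A match is a description of letters in a short window and was not tested as a binding site.

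**Figure D1:**
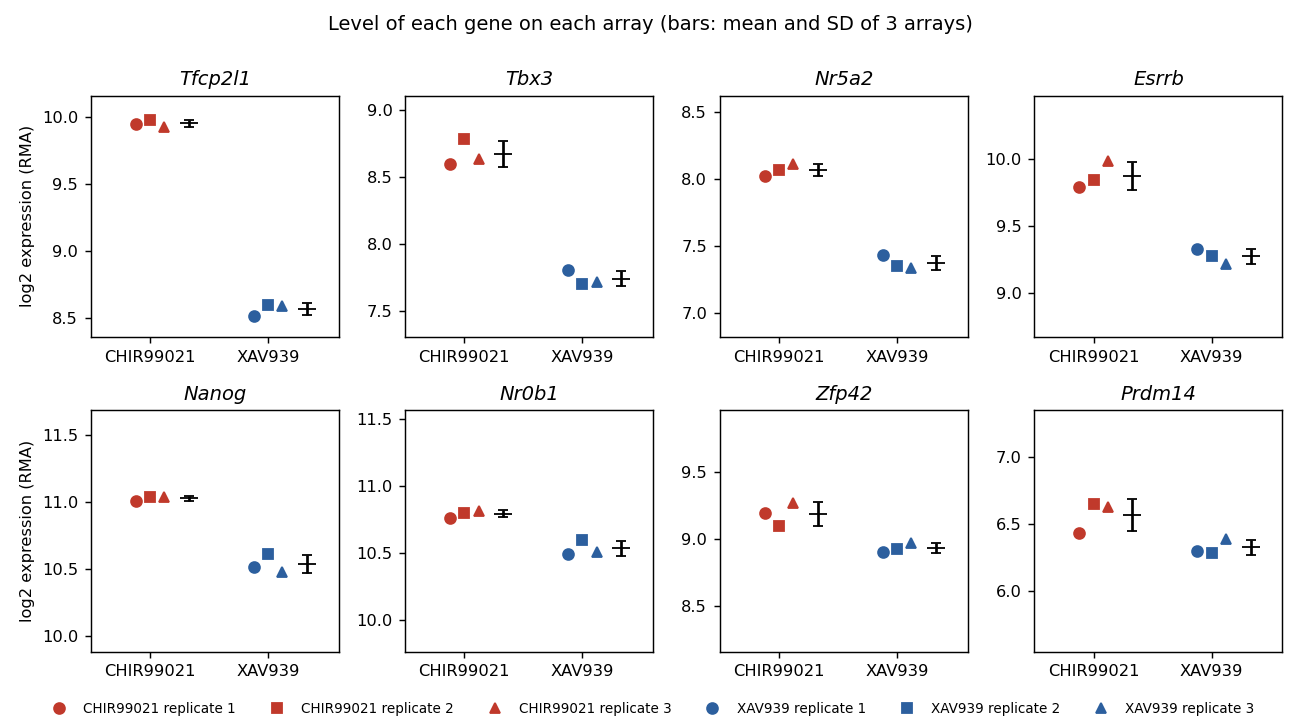
Log2 expression (RMA, y axis) of the 8 naive factors on each array, ordered by size of difference, with CHIR99021 arrays in red and XAV939 arrays in blue. Marker shapes give the replicate, black bars the mean and SD of 3 arrays, and every panel spans the same range of log2 units. The treatments are wide apart for Tfcp2l1, with a gap of 1.33, and nearly touch for Prdm14, with a gap of 0.038.

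Tfcp2l1, a transcription factor that is induced by LIF signalling through STAT3 and can itself sustain self-renewal, lies on chromosome 1 (118627923 to 118685168, GRCm38.p6) and was measured by probe set 10349295. Its log2 level was 9.95, 9.97 and 9.93 on the CHIR99021 arrays, against 8.51, 8.59 and 8.59 on the XAV939 arrays. The treatments did not overlap, and the gap between the closest arrays, 1.33, was far wider than the spread within either treatment (SD 0.024 with CHIR99021 and 0.046 with XAV939). The rise was 2.61-fold (1.38 ± 0.05, SE; interval of the fold 2.41 to 2.83; adjusted p = 1.81e-07 in limma). It ranked 20th of 19937 genes in order of difference, and it was the member that reached 2-fold, as 0.251% of all genes did upward.

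Tbx3, a T-box factor that promotes self-renewal in these cells and patterns limb and heart tissue in the embryo, lies on chromosome 5 (119670534 to 119684724; probe set 10525016). Its level was 8.60, 8.79 and 8.64 with CHIR99021, against 7.81, 7.71 and 7.72 with XAV939. CHIR99021 replicate 2 was the highest array and the groups were 0.793 apart at their closest. Tbx3 rose 1.90-fold (0.93 ± 0.06, SE; interval 0.79 to 1.07; adjusted p = 8.83e-06) and ranked 65th of all genes.

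Nr5a2, an orphan nuclear receptor also known as LRH-1 that binds the Pou5f1 regulatory region, lies on chromosome 1 (136842562 to 136960448; probe set 10358210). Its level was 8.03, 8.07 and 8.12 with CHIR99021, against 7.44, 7.36 and 7.34 with XAV939. Replicates agreed closely in both groups, with SDs of 0.045 and 0.052. Nr5a2 rose 1.62-fold (0.69 ± 0.05, SE; interval 0.57 to 0.81; adjusted p = 2.10e-05).

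Esrrb, an orphan nuclear receptor that can stand in for NANOG in self-renewal, is the textbook target of TCF7L1 repression in these cells. It lies on chromosome 12 (86361117 to 86521628; probe set 10397440). The CHIR99021 arrays gave 9.79, 9.84 and 9.99, against 9.33, 9.27 and 9.22 on the XAV939 arrays. CHIR99021 replicate 3 was the highest, and the spread with CHIR99021 (SD 0.10) was larger than with XAV939 (0.054), although no values overlapped. Esrrb rose 1.51-fold (0.60 ± 0.06, SE; interval 0.46 to 0.74; adjusted p = 1.66e-04).

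Nanog, the homeodomain factor whose level separates self-renewing from differentiation-prone cells in serum, lies on chromosome 6 (122707489 to 122714633; probe set 10541524). Its level was 11.01, 11.04 and 11.04 with CHIR99021, against 10.52, 10.61 and 10.48 with XAV939. The CHIR99021 arrays were almost identical (SD 0.019) and the XAV939 arrays were more spread (0.067). Nanog rose 1.41-fold (0.49 ± 0.05, SE; interval 0.37 to 0.61; adjusted p = 2.08e-04). These 5 genes kept their call with each array left out in turn, with differences between 0.465 for Nanog and 1.40 for Tfcp2l1, and they ranked from 20th (Tfcp2l1) to 298th (Nanog) of all genes.

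Nr0b1, also known as DAX1, is a nuclear receptor without the usual zinc-finger DNA-binding domain that acts on other factors, NR5A2 and OCT4 among them. It lies on the X chromosome (86191775 to 86195947; probe set 10600707). Its level was 10.76, 10.80 and 10.82 with CHIR99021, against 10.50, 10.60 and 10.51 with XAV939. The groups did not overlap, but the closest arrays were only 0.164 apart. Nr0b1 rose 1.20-fold (0.26 ± 0.05, SE; interval 0.14 to 0.37; adjusted p = 0.011). Without CHIR99021 replicate 2 the difference was 0.253 and the call was lost (adjusted p = 0.0551; 0.00493 to 0.0551 over 14 alternatives).

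Zfp42 is a widely used marker of the naive state whose loss leaves embryonic stem cells able to self-renew. It lies on chromosome 8 (43295067 to 43307009; probe set 10578401). Its level was 9.20, 9.10 and 9.27 with CHIR99021, against 8.90, 8.93 and 8.97 with XAV939. CHIR99021 replicate 2 was the lowest of its group and lay 0.123 above the highest XAV939 array. Zfp42 rose 1.19-fold (0.25 ± 0.06, SE; interval 0.12 to 0.38; adjusted p = 0.0212). The call was lost without CHIR99021 replicate 1 (adjusted p = 0.0782), CHIR99021 replicate 3 (0.0747) or XAV939 replicate 2 (0.069), with adjusted p between 0.0169 and 0.126 over 14 alternatives and a positive difference in each.

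Prdm14 is a regulator of pluripotency and of the germ line that represses de novo DNA methyltransferases and FGF receptors. It lies on chromosome 1 (13113428 to 13127163; probe set 10353127). Its level was 6.43, 6.65 and 6.63 with CHIR99021, against 6.30, 6.29 and 6.39 with XAV939. CHIR99021 replicate 1 lay apart from the other two arrays of its group and close to XAV939 replicate 3. The difference of 0.24 ± 0.07 (SE; interval 0.09 to 0.39) did not pass (adjusted p = 0.0514 in limma). Without CHIR99021 replicate 1 it was 0.312 and passed (adjusted p = 0.0176), without CHIR99021 replicate 2 it was 0.203 (adjusted p = 0.206), and the adjusted p ran from 0.0176 to 0.238 over 14 alternatives. The mean signal of its probe set, 6.45, was near the middle of all genes, at a percentile of 55.6. RMA tends to compress differences at low signals, but whether it did so at this middle level was not tested.

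**Figure D2:**
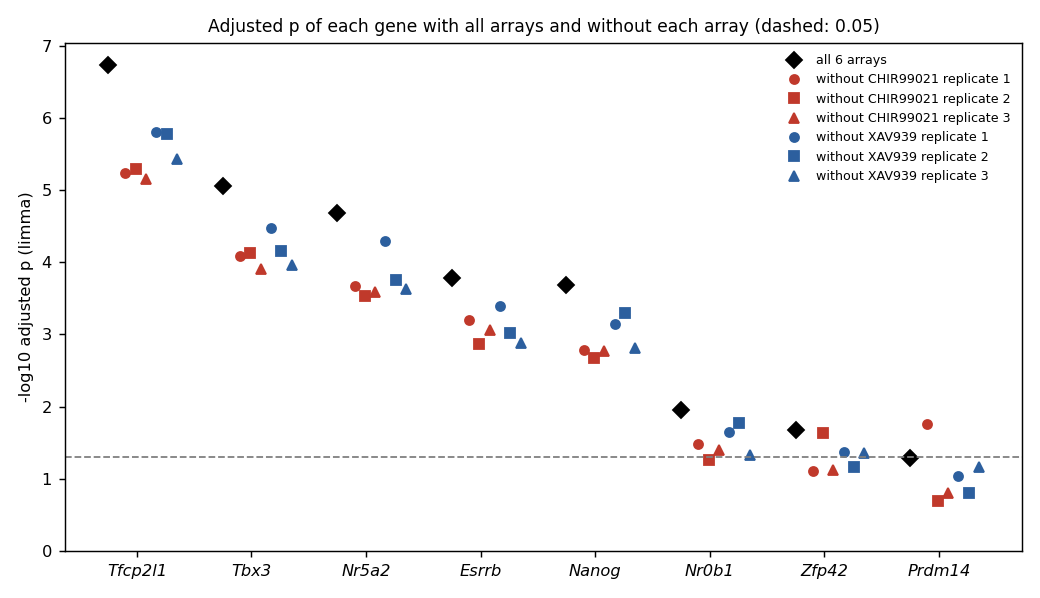
Adjusted p (−log10, limma, y axis) of each naive factor with all 6 arrays (black diamonds) and with each array left out in turn (red, CHIR99021 arrays; blue, XAV939 arrays; marker shape gives the replicate). Higher is a smaller p and the dashed line is 0.05; Tfcp2l1, Tbx3, Nr5a2, Esrrb and Nanog stay above it throughout, while Nr0b1, Zfp42 and Prdm14 lie on both sides.

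The estimated change varied in size among the 8 factors, each measured by its own probe set. Setting each pair of genes against each other on the same arrays, the difference in log2 change was at the smallest two-sided exact permutation p that 3 against 3 arrays can give, 0.1, for 24 of 28 pairs (0.117 after adjustment over the pairs), so no pair could pass. Tfcp2l1 exceeded Tbx3 by 0.455 ± 0.0745 (SE) and Nanog by 0.891 ± 0.0442. Nr0b1, Zfp42 and Prdm14 differed from one another by 0.0141 or less, with SEs of 0.063 to 0.0946 (exact permutation p of 0.8 to 0.9), and Esrrb from Nanog by 0.106 ± 0.0665 (p = 0.3, exact permutation test).

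Within each treatment the naive factors tracked one another only in part. CHIR99021 replicate 1 was the lowest of its group for 6 of the 8 genes and lay above the group mean for 1 of them, Zfp42. The same count over all genes is not given here, so it was not read as a trait of the set. CHIR99021 replicates 2 and 3 were each the highest for 4 of the 8. Among XAV939 arrays the highest value fell on replicate 1 for 3 genes, on replicate 2 for 3 and on replicate 3 for 2. The mean deviation of the 8 genes from their group mean was -0.048 on CHIR99021 replicate 1 and at most 0.034 in size on each of the other arrays.

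Close relatives of the factors were examined by a list of 12 genes from the same families, of which 11 were measured. None rose or fell by limma, against 5.31% and 4.34% of all genes, with 1 higher and 1 lower at an unadjusted p under 0.05 and a median of -0.0095. For 11 genes a count of 0 is near those shares and was not read as a result about the relatives. Ordinary least squares also called 0. The relatives closest to the threshold were Tbx2, a T-box repressor of the same subfamily as Tbx3, at 0.20 ± 0.06 (adjusted p = 0.0747), and Prdm1, known as BLIMP1 and needed for germ cell specification, at -0.17 ± 0.06 (adjusted p = 0.107). Without XAV939 replicate 1, Tbx2 passed, with adjusted p = 0.011 as its smallest and 0.264 as its largest over 14 alternatives.

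Esrra and Esrrg, the other estrogen-related receptors, differed by -0.04 ± 0.06 and 0.00 ± 0.07, where Esrrb differed by 0.60. Nr5a1, the steroidogenic relative of Nr5a2, differed by -0.08 ± 0.06, and Nr0b2, the relative of Nr0b1, by -0.02 ± 0.06. Tfcp2 and Ubp1, the other CP2 factors, differed by 0.07 ± 0.06 and -0.01 ± 0.05, where Tfcp2l1 differed by 1.38. Tbx4 and Tbx5 differed by 0.06 ± 0.06 and -0.12 ± 0.07, and Yy1, the relative of Zfp42, by -0.01 ± 0.06. On the same arrays, each member exceeded each of its measured relatives in log2 change for all 11 pairs, from 0.26 ± 0.048 (SE) for Zfp42 over Yy1 to 1.39 ± 0.028 for Tfcp2l1 over Ubp1. Each of these comparisons was at the smallest two-sided exact permutation p the design allows, 0.1, also after adjustment over the 11 pairs. The members were chosen with earlier results of these arrays known, so their common direction is not independent of that choice. Of the 11 relatives, 6 had signals below the median of all genes.

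**Figure D3:**
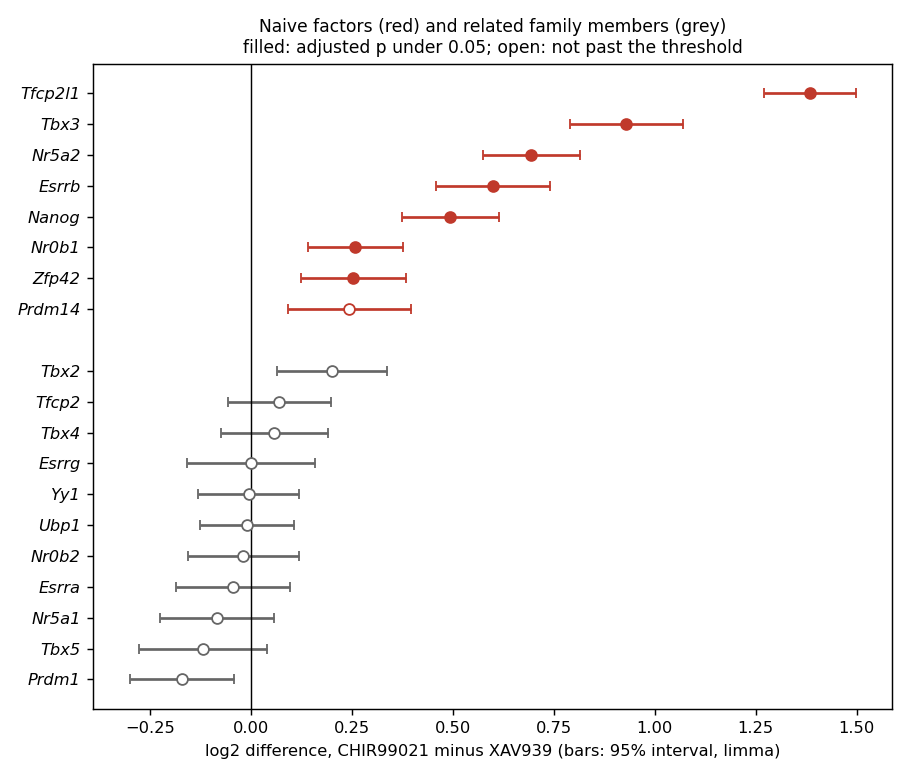
Log2 difference, CHIR99021 minus XAV939 (x axis), with 95% limma intervals for the 8 naive factors (red) and 11 relatives from the same gene families (grey). Filled points passed an adjusted p of 0.05; the naive factors run from 0.24 to 1.38 and the relatives from -0.17 to 0.20.

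The genes whose profiles over the 6 arrays were most like each called factor were found by the root mean square difference between profiles after subtracting each gene's own mean. For Tfcp2l1 they were Emp1, a tetraspan membrane protein, and Dsc2, a desmosomal cadherin, with root mean square differences of 0.0727 and 0.0748 log2 units. For Esrrb they were Grik3 and Atp8b2 (0.024 and 0.036), and for Nanog they were Gss, glutathione synthetase, and the imprinted gene Peg3 (0.0192 and 0.028). Nr5a2 was nearest to Tenm3 and Fxyd6 (0.0298 and 0.0303), Tbx3 to Edn1 and Nrp2 (0.0495 and 0.0503), Nr0b1 to Gpa33 and Lgmn (0.0116 and 0.0157), and Zfp42 to Tmed10 and Nid1 (0.0212 and 0.0215). None of these 14 nearest profiles belonged to another of the 8 factors. Among so many genes that was likely beforehand, and it does not show whether the factors vary together. With 6 arrays in 2 treatments the likeness is mostly that of equal difference.

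Readouts of the targeted pathway were higher with CHIR99021. Over all genes, 5.31% were called higher and 4.34% lower. Axin2, a feedback target of β-catenin, had a mean level of 7.48 with CHIR99021 and 5.57 with XAV939 (1.91 ± 0.09, SE; adjusted p = 5.43e-07), and 5 of 9 Wnt readouts rose, Axin2, Cdx2, Sp5, Cdx1 and Notum, while 4 did not pass. Tcf7l1, the repressor of Esrrb and Nanog named above, fell at the transcript level by 0.79 ± 0.14 (SE, adjusted p = 0.00385 in limma), with mean levels of 7.18 with CHIR99021 and 7.96 with XAV939. Its part in the differences of the naive factors was not tested. Tle4, a Groucho-family corepressor, fell by 0.45, Ctbp2 by 0.26 and Tcf7l2 by 0.25, and Lef1 rose by 0.69, out of 10 measured TCF/LEF factors and corepressors. Leaving out CHIR99021 replicate 1, CHIR99021 replicate 2, XAV939 replicate 2 or XAV939 replicate 3 ended the calls of Ctbp2 and Tcf7l2, so that 2 of the 4 falls remained, those of Tcf7l1 and Tle4. Tcf7l1 in turn lost its call under ordinary least squares and with all probe sets tested together (adjusted p = 0.000695 to 0.17 over 14 alternatives). Tle4 kept its call in all 14. Ctnnb1 itself differed by 0.02 ± 0.05 (adjusted p = 0.922).

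Listed transcripts of the LIF input to the naive factors were not called higher, where 5.31% of all genes were higher and 4.34% lower. The list leaves out Tfcp2l1 and Klf4, which also lie downstream of STAT3 and rose by 1.38 and 0.81. Of 9 LIF/STAT3 genes, 0 were higher by limma (1 at an unadjusted p under 0.05; 0 by ordinary least squares) and 2 were lower, the kinase gene Pim1 (-0.28 ± 0.07) and the receptor gene Lifr (-0.21 ± 0.05). Both calls rest on particular arrays, with 0 of the 9 lower without CHIR99021 replicate 1, CHIR99021 replicate 2 or XAV939 replicate 3, and 1 lower without XAV939 replicate 1 or 2. Stat3 differed by 0.12 ± 0.06 (adjusted p = 0.358) and Socs3, its feedback target, by 0.13 ± 0.07 (adjusted p = 0.346). The abundance of transcripts does not measure phosphorylated STAT3.

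Of 11 readouts and components of MEK/ERK signalling, which pushes cells out of the naive state, 3 rose (5.31% over all genes), 1 fell (4.34% over all genes) and 7 did not pass. Dusp4 rose by 0.83 ± 0.09, Etv4 by 0.76 ± 0.11 and Fgfr1 by 0.30 ± 0.08, while Fgfr2 fell by 0.98. The 7 that did not pass differed by -0.21 to 0.12, in both directions. Fgfr1 kept its call without replicate 1 of either treatment and lost it without any other single array (adjusted p = 0.011 to 0.263 over 14 alternatives).

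Among 17 other measured naive genes, 6 rose (5.31% over all genes), 2 fell (4.34% over all genes) and 9 did not pass. Their median was 0.15 (0.0741 without XAV939 replicate 3 and 0.0922 without CHIR99021 replicate 3). Mylpf, a myosin light chain gene, rose 2.53-fold (1.34 ± 0.06) and Klf4, a Krüppel-like factor downstream of STAT3, rose by 0.81 ± 0.07, with Jam2, Tcl1, Gbx2 and Zfp57 between 0.23 and 0.43. Dppa2 and Fgf4 fell by 0.56 and 0.38, and Klf2 differed by 0.15 ± 0.09 (adjusted p = 0.399). Gbx2 kept its call only without CHIR99021 replicate 2 or XAV939 replicate 1 among the single arrays (adjusted p = 0.0224 to 0.25 over 14 alternatives). Zfp57 lost its call without any single array except XAV939 replicate 2 (adjusted p = 0.016 to 0.119).

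General pluripotency factors, shared by naive and primed cells, were called lower or not at all, where 4.34% of all genes were lower and 5.31% higher. Of 9 measured, 0 rose by limma, 0 had an unadjusted p under 0.05 upward and 0 were called higher by ordinary least squares, while 5 fell by limma: Tdgf1 (-0.63), Utf1 (-0.67), L1td1 (-0.36), Lin28a (-0.21) and Sall4 (-0.20). That count was 3 without CHIR99021 replicate 1, CHIR99021 replicate 2 or XAV939 replicate 3; Sall4 lost its call without any single array, and Lin28a without any except XAV939 replicate 1. Pou5f1 differed by -0.19 ± 0.06 (adjusted p = 0.115).

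Primed epiblast genes, active after exit from the naive state, were lower in 9 of 13 cases (4.34% over all genes) and higher in 2 (5.31% over all genes), with a median of -0.68. The largest falls were those of the kinase gene Pim2 (-2.18 ± 0.07), the homeobox gene Otx2 (-2.14 ± 0.09) and the methyltransferase gene Dnmt3a (-1.50 ± 0.07). Those that rose were Etv4 and Fgf8 (0.33 ± 0.07), and Fgf8 lost its call without CHIR99021 replicate 1 or 3 or XAV939 replicate 2.

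Of 6 genes known as repressed by PRDM14, 4 fell (4.34% over all genes), 1 rose (5.31% over all genes) and 1 did not pass. Those that fell were Dnmt3a, Dnmt3b (-0.96 ± 0.07), Dnmt3l (-0.64 ± 0.05) and Fgfr2 (-0.98 ± 0.07). Fgfr1 rose, as given above, and Uhrf1 differed by -0.08 (adjusted p = 0.571). Dnmt3a and Dnmt3b also stand in the primed list, and the lists were drawn up with earlier results of these arrays known.

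Among 14 genes for cofactors and protein partners of the naive factors, 4 fell (4.34% over all genes) and 0 rose by limma (5.31% over all genes). At an unadjusted p under 0.05, 3 of the 14 were higher, and 0 were called higher by ordinary least squares. Jarid2, a Polycomb component, fell by 0.51 and Tet1, a methylcytosine dioxygenase that binds NANOG, fell by 0.39, followed by Nacc1 (-0.23) and Sall4. The count lower was 2 without CHIR99021 replicate 1, CHIR99021 replicate 2 or XAV939 replicate 2, and 1 was higher without XAV939 replicate 2. Ncoa3, a coactivator of ESRRB, differed by -0.19 ± 0.05 (adjusted p = 0.0562), and Cbfa2t2, a partner of PRDM14, by -0.32 ± 0.10 (adjusted p = 0.0931).

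**Figure D4:**
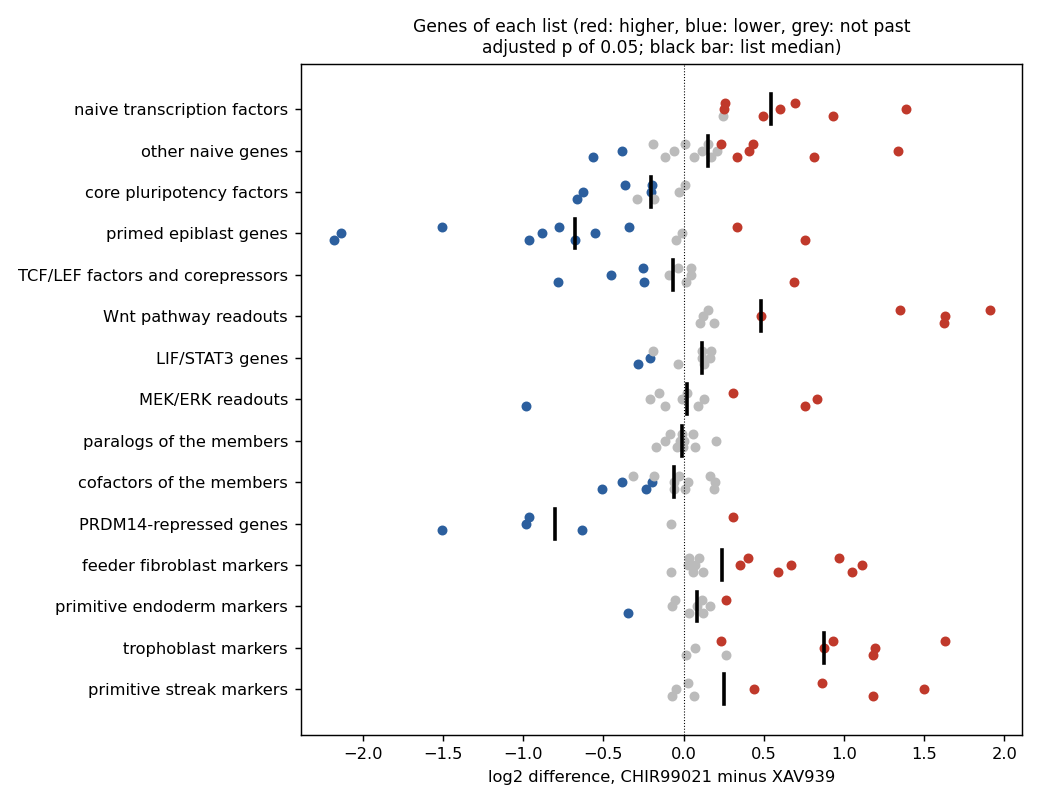
Log2 difference, CHIR99021 minus XAV939 (x axis), of every measured gene in 15 lists (rows), each point a gene, red where higher, blue where lower and grey where not past an adjusted p of 0.05; black bars are list medians. The naive transcription factors all lie right of 0, with a median of 0.55, while primed epiblast genes lie mostly left of it, with a median of -0.68. All 9 trophoblast markers and all 9 Wnt readouts also lie right of 0, with medians of 0.876 and 0.482, although 3 and 4 of them did not pass. Of all 19937 genes, 10568 had a difference above 0. Points of one row are offset vertically for clarity only.

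Markers of other cells moved as well. Of 14 feeder fibroblast markers, 7 rose (5.31% over all genes) and 7 did not pass. The mean log2 level of the 14 ran from 7.15 to 7.21 on CHIR99021 arrays and from 6.74 to 6.81 on XAV939 arrays. Col1a1 rose by 1.05 ± 0.05, Vim by 1.11 ± 0.06 and Fn1 by 0.97 ± 0.05. The fibroblast matrix genes Lum, Postn and Dcn were at 4.08, 4.29 and 4.44 with CHIR99021 and at 4.02, 4.25 and 4.41 with XAV939, with no call of detection available. Their part in the differences of the naive factors was not tested.

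Of 9 trophoblast markers 6 rose (5.31% over all genes), and those with the smallest p were Krt18 (1.19 ± 0.07), Cdx2 (1.63 ± 0.10) and Krt7 (0.88 ± 0.06). Their mean level over the 9 was 7.95 to 8.03 with CHIR99021 against 7.21 to 7.32 with XAV939. The trophoblast factor Elf5 was at 4.95 with CHIR99021 and 4.93 with XAV939. Cdx2 is also counted among the Wnt readouts, and Eomes is counted among both the trophoblast and the primitive streak markers. Of 8 primitive streak markers 4 rose (5.31% over all genes), Mixl1 (2.82-fold), Eomes (1.18 ± 0.08), Wnt3 (0.86 ± 0.10) and Evx1 (0.44 ± 0.08). The 4 that did not pass differed by only -0.075 to 0.064. The mean level of the 8 was 6.05 to 6.24 with CHIR99021 against 5.56 to 5.72 with XAV939. Of 9 primitive endoderm markers 1, Lama1, rose by 0.26 ± 0.05 and 1, Dab2, fell by 0.35; Dab2 kept its call without replicate 3 of either treatment and lost it without any other single array. Over all genes 5.31% rose and 4.34% fell, so 1 marker each way was not read as a change of the list. The mean level of the 9 endoderm markers was 5.80 to 5.88 with CHIR99021 against 5.76 to 5.93 with XAV939. The part of these markers in the differences of the naive factors was not tested either.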

How the data were processed

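Expression was measured on 6 one-colour Affymetrix whole-transcript arrays, 3 of CHIR99021 and 3 of XAV939 cultures, grouped by their titles. The deposited table holds log2 values of 34760 probe sets, made by the authors with RMA per the submitters' processing notes; its version is not given in the sources used here, nor is a genome build. RMA corrects background, equalises array distributions and summarises probes, which compresses differences at low signals. No batch or detection was tested, since scanner output was not used here, and precision is limited by the number of arrays. The platform annotation named 1 gene for 21640 probe sets, several for 1321 and none for 11799; the highest-mean single-gene probe set represented each of 19937 genes. limma 3.58.1 in R 4.3.3 (lmFit, eBayes, no replicate block) was fitted to all genes with Benjamini-Hochberg adjustment and a threshold of 0.05 (4 residual and 6.15 prior degrees of freedom), after testing on simulated data. Exact permutation tests compared pairs of genes. Named genes were the 8 factors, 8 genes always named, up to 3 called genes with the smallest p from each of 14 lists (1 where none passed), all measured relatives, and 2 nearest profiles per called factor. Genes outside this rule (Lin28a, Sall4, Ctbp2, Tcf7l2, Cdx1, Notum, Fgf8, Fgf4, Dnmt3l, Fgfr1, Evx1, Jam2, Tcl1, Gbx2, Zfp57, Socs3, Stat3, Ncoa3, Cbfa2t2, Lum, Postn, Dcn, Elf5 and Uhrf1) were chosen after their values were seen. The members and lists were chosen with earlier results of these data known. Promoters came from RefSeq (GRCm38.p6); plots used matplotlib 3.10.9. Alternatives left out arrays, blocked on replicate number, centred arrays, filtered or averaged probe sets, changed the variance model, the features tested or the threshold.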

Additional observations from a re-analysis of the deposited data

How the results depend on the processing

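The direction of all 8 naive factors was the same under every alternative run, and the number called higher was between 5 (ordinary least squares, or a threshold of 0.01) and 8 (with the lower 50% of genes by level left out), and 6 or 7 with 1 array left out. Without 1 array, differences ran from 0.237 to 0.289 for Nr0b1, 0.212 to 0.299 for Zfp42 and 0.203 to 0.312 for Prdm14. Nr0b1 (0.257) and Zfp42 (0.253) did not pass under ordinary least squares, nor Zfp42 with all probe sets tested together (0.253) or without XAV939 replicate 1 and CHIR99021 replicate 3 together (0.196); Prdm14 passed without genes of low level (0.243). Fewer degrees of freedom or more features tested follow from the construction of these settings; otherwise the cause was not tested.

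Over all genes, 1058 were higher and 866 lower; the counts were 350 and 289 under ordinary least squares, 584 and 460 with all probe sets, 621 and 497 at 0.01, and 528 to 1117 lower without 1 array. Deviations of same-numbered arrays correlated at -0.0957, 0.0602 and -0.143, and those of different-numbered arrays at -0.129 to 0.182. Whether a replicate number marks a shared culture or day is not stated, and these correlations cannot settle it. With the replicate block 876 genes were higher and 702 lower and the calls of the 8 factors were the same. With that block, 3 core factors, 1 LIF/STAT3 gene, 2 cofactors and 0 primitive endoderm markers were lower, and 0 PRDM14-repressed genes higher.

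Ordinary least squares gave 3 higher and 1 lower among other naive genes, 2 lower core factors, 0 higher and 5 lower primed genes, 1 lower TCF/LEF gene, 2 higher Wnt readouts, 0 lower LIF/STAT3 genes, 0 higher MEK/ERK readouts, 2 lower cofactors, 0 higher PRDM14-repressed genes, 0 lower primitive endoderm markers and 2 higher streak markers. With all probe sets together, 3 core factors were lower, 1 primed gene higher, 1 TCF/LEF gene lower, 0 LIF/STAT3 genes lower, 2 cofactors lower, 0 PRDM14-repressed genes higher and 0 primitive endoderm markers lower.

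With 1 array left out, counts ran from 3 to 4 for lower core factors, 1 to 2 for higher primed genes, 2 to 4 for lower TCF/LEF genes, 0 to 2 for lower LIF/STAT3 genes, 0 to 1 for higher relatives, 0 to 1 for higher and 2 to 5 for lower cofactors, 0 to 1 for higher PRDM14-repressed genes, and 1 to 2 for higher and 0 to 1 for lower primitive endoderm markers, and the median of other naive genes from 0.0741 to 0.205. Without XAV939 replicate 1 and CHIR99021 replicate 3 together, 1 relative was higher, 2 primitive endoderm markers higher and 0 lower, and medians were -0.552 for primed genes and -0.127 for cofactors. Without genes of low level, 0 primitive endoderm markers were lower, and medians were 1.35 for Wnt readouts, 0.59 for feeder markers and 1.02 for streak markers, since fewer genes were left.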
